A study of Mus musculus with 6 samples.

Results

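The genes described here are 34 transcripts of peripheral glia, the Schwann cells and satellite cells that lie along the axons and around the cell bodies of sensory neurons. They were taken by symbol from a table of 45777 genes measured in cultures of dorsal root ganglion (DRG) neurons, and were divided by role into 15 myelin genes, 10 genes of Schwann cell lineage identity and signalling, and 9 genes of satellite glia. The tested cultures (ONCM, 3 libraries) received 100 ng/ml of recombinant oncomodulin, a calcium-binding protein of the parvalbumin family, for 12 h, and the control cultures (PBS, 3 libraries) received phosphate-buffered saline. All cultures came, per the labels, from wild-type female C57BL/6 mice 8 weeks old. The labels call the libraries biological replicates without naming separate cultures or animals, so the tests below rest on library-to-library spread, which may be technical.

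Schwann cells wrap axons, and those around large axons build compact myelin from a few very abundant proteins together with lipids, junction proteins and a cytoskeletal scaffold. Neuregulin 1 on the axon acts through the receptor pair ERBB2 and ERBB3 to keep Schwann cells alive and to set myelin thickness, and the transcription factors SOX10 and EGR2 drive the myelin genes. After nerve injury Schwann cells are known to switch off myelin genes and to take up a repair state driven by JUN. Satellite glia enclose the neuronal cell body, are coupled to each other by gap junctions, and clear glutamate and potassium.

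Library totals ran from 53770820 to 60291315 counts with ONCM and from 55920700 to 64477014 counts with PBS, and every one of the 34 genes had enough counts to be tested. Markers of neurons summed to between 18579 and 19501 TPM (a level scaled by gene length and library size) with ONCM and between 18487 and 19097 TPM with PBS, so neuronal transcripts were present as labelled, with glial transcripts beside them. The labels give female for every culture, yet Ddx3y, a gene of the Y chromosome, stood at 16.1 ± 0.933 CPM (counts scaled to TMM library size) with ONCM and 60.5 ± 2.17 CPM with PBS (SD, n = 3 each). Xist, the RNA of the inactive X chromosome, stood at 478 ± 55.8 CPM with ONCM and 0.53 ± 0.0526 CPM with PBS (SD, n = 3 each). Sex-linked transcripts thus differed between groups that carry the same label, and Y chromosome transcripts in both groups are at odds with that label. For every difference below, treatment and the source of the cells cannot be told apart. Of the 34 genes, Drp2 and Gjb1 are on the X chromosome.

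The glial genes spanned about 4 orders of magnitude in level, and the most abundant were transcripts of Pmp22, Mbp and S100b. Pmp22, the peripheral myelin protein 22 gene, had the highest level, at 1365 ± 8.67 TPM with ONCM and 1224 ± 5.63 TPM with PBS (SD, n = 3 each), and ranked 75 among all genes in the PBS libraries. With PBS the next in order were S100b, Mbp, Sparcl1, Glul and Sox10. With ONCM, Mbp at 961 ± 66.4 TPM stood above S100b at 828 ± 15.4 TPM, and Glul at 359 ± 4.69 TPM stood above Sparcl1 at 316 ± 2.84 TPM, and in both pairs the order with PBS was the opposite. Near the low end were Gjc3 at 2.67 ± 0.102 TPM with ONCM and 4.07 ± 0.449 TPM with PBS, and Fa2h at 3.63 ± 0.356 TPM with ONCM and 3.59 ± 0.0979 TPM with PBS (SD, n = 3 each). Mobp, a myelin gene best known from oligodendrocytes of the central nervous system, had 6 to 13 counts in an ONCM library and 6 to 23 in a PBS library. In the PBS order 12 of the 33 neighbouring pairs had overlapping libraries, among them Scn7a with Gldn, Gldn with Prx, Fbln2 with Drp2, and Gja1 with Cnp.

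**Figure D1:**
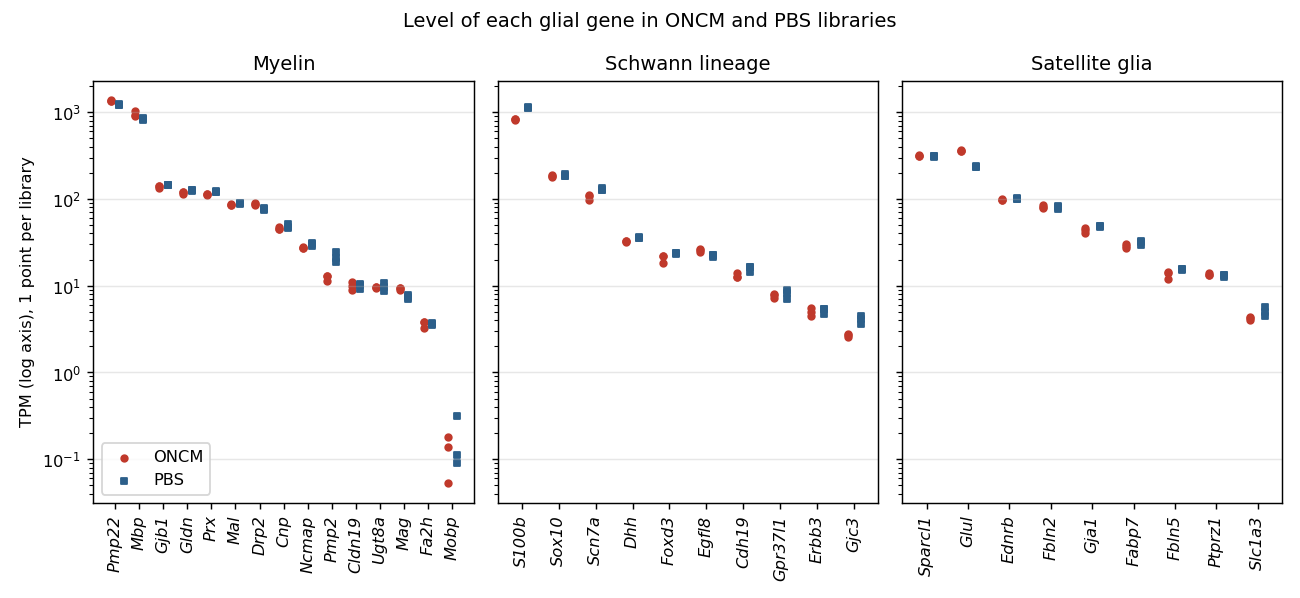
Level of each of the 34 glial genes in TPM on a log axis, with 1 point per library, ONCM left and PBS right, in panels for myelin, Schwann lineage and satellite glia genes. Pmp22, Mbp and S100b are the most abundant, and Mobp lies below 1 TPM in all 6 libraries.

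Most changes in the glial genes were small. By edgeR's quasi-likelihood test with an adjusted p under 0.05, 8 of the 34 were raised and 6 lowered, and 20 missed the threshold; "rose" and "fell" are kept for calls of this kind. Thus 14 of 34 (41.2%) passed, against 48.3% of all 20354 genes tested, and the shares that rose and fell were 23.5% and 17.6%, against 23.9% and 24.4% of all genes tested. With the deposited TPM values, tested by limma on log2(TPM + 1), 15 of 34 passed, against 45.5% of all genes tested, with 6 raised and 9 lowered where the whole table had 17.8% raised and 27.7% lowered. None of the 34 changed 2-fold or more, against 8.19% of all genes tested. A log2 fold change of at least 0.25 in size with a passing test was seen in 6 of the 34, against 33.1% of all genes tested. The groups did not overlap for 18 of the 34, against 55.6% of all genes tested. The median log2 fold change was -0.0022 over the 34 and -0.0021 over all genes tested, and the median size of change, ignoring sign, was 0.10 and 0.23. In these comparisons the 34 were not matched for level with the other genes. These are counts from bulk RNA, in which fewer cells of a type and less RNA per cell cannot be told apart.

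**Figure D2:**
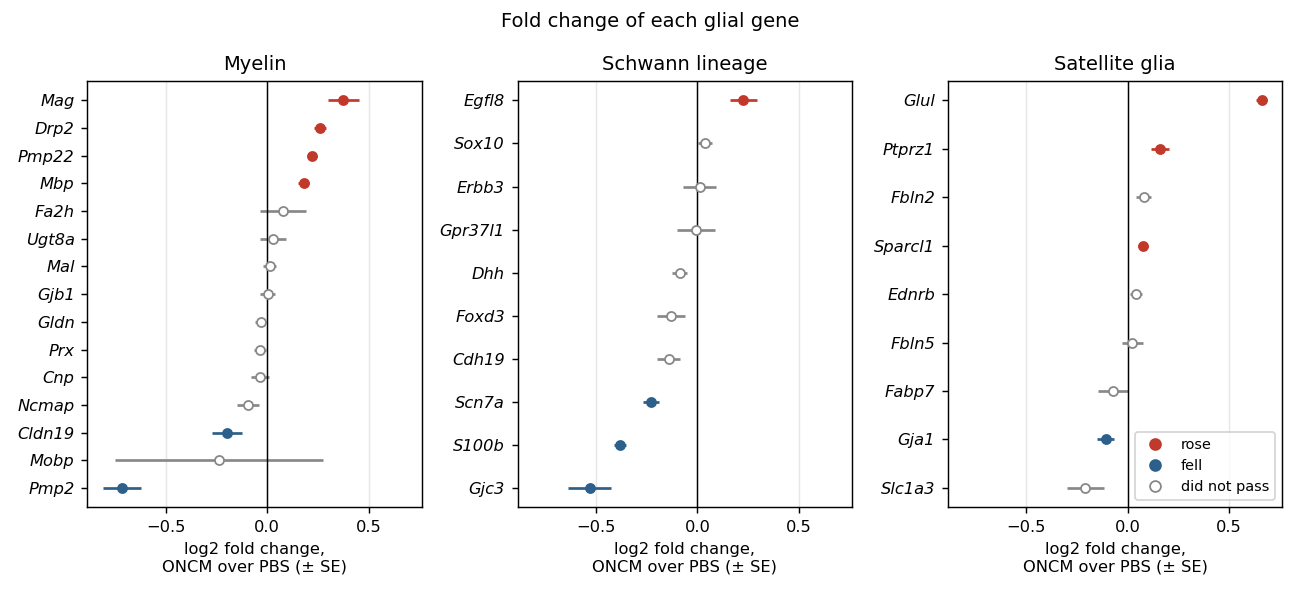
Log2 fold change of each glial gene, ONCM over PBS, from edgeR's quasi-likelihood test, with bars of 1 standard error; filled points rose (red) or fell (blue) and open points did not pass. Glul has the highest value at 0.66 and Pmp2 the lowest at -0.72, and most points lie within 0.25 of 0.

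Among the 15 myelin genes a rise was called for 4 and a fall for 2, while 9 missed the threshold, with a median log2 fold change of 0.0018. Thus 40% passed, where 48.3% of all genes tested passed, 23.9% upward and 24.4% downward. Transcripts of Mbp and Pmp22 rose slightly, while those of Pmp2 fell. Mbp, the myelin basic protein gene on chromosome 18, which holds the inner faces of the membrane together, had 929, 949 and 975 CPM in the ONCM libraries and 825, 834 and 861 CPM in the PBS libraries. Pmp22 (chromosome 11, 63128982 to 63159547) had 1023, 1017 and 1054 CPM with ONCM and 884, 883 and 891 CPM with PBS. For both genes every ONCM library lay above every PBS library. The log2 fold change was 0.18 for Mbp (SE 0.03, edgeR adjusted p = 2.88e-05) and 0.22 for Pmp22 (SE 0.03, edgeR adjusted p = 9.43e-07), and these 2 genes together made up most of the summed level of the myelin group, Mbp 32.1% of summed TPM with ONCM and 30.4% with PBS, and Pmp22 45.7% with ONCM and 44.6% with PBS.

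The other rises in this group were those of Mag and Drp2. Mag, the myelin-associated glycoprotein that faces the axon (chromosome 7, 30899175 to 30914922), had 9.22, 9.41 and 9.65 CPM with ONCM and 7.61, 6.83 and 7.37 CPM with PBS, a rise of 0.37 on the log2 scale (SE 0.08, edgeR adjusted p = 5.66e-04). Drp2, dystrophin-related protein 2, which ties the outer Schwann cell membrane to the dystroglycan complex (chromosome X, 134404124 to 134456574), had 260, 260 and 250 CPM with ONCM and 212, 213 and 218 CPM with PBS. In neither gene did the groups overlap. The log2 fold change of Drp2 was 0.26 (SE 0.03, edgeR adjusted p = 6.58e-07). Periaxin, Drp2's partner in that complex, is encoded by Prx, which did not pass at 230 ± 6.31 CPM with ONCM and 235 ± 1.47 CPM with PBS (SD, n = 3 each, log2 fold change -0.03, SE 0.03).

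Pmp2 had the largest change in size of the 34. It encodes peripheral myelin protein 2, a fatty acid-binding protein of peripheral myelin (chromosome 3, 10179851 to 10183885). Its level was 7.20, 7.25 and 6.54 CPM in the ONCM libraries and 10.1, 11.2 and 13.2 CPM in the PBS libraries, with no overlap and a wider spread among the PBS libraries. The log2 fold change was -0.72 (SE 0.09, edgeR adjusted p = 4.33e-06), and it ran from -0.81 to -0.61 when each library was left out in turn. In the GENCODE annotation 86.9% of the exonic bases of Pmp2 are shared with Gm37389, a protein-coding model on the same strand. Reads of both models cannot be separated there. Cldn19, a tight junction protein of Schwann cells, fell by 0.20 on the log2 scale (SE 0.07, edgeR adjusted p = 0.0355), with overlapping libraries. That call passed in 5 of 13 alternative analyses, and limma on log2(TPM + 1) gave -0.0052 (adjusted p = 0.966).

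The other myelin genes did not pass. Gjb1, connexin 32, which forms channels between the layers of the Schwann cell (chromosome X, 101376376 to 101385629), had 93.0, 86.7 and 93.3 CPM with ONCM and 91.2, 90.2 and 91.3 CPM with PBS. The groups overlapped, and the log2 fold change was 0.0018 (SE 0.04). Mal, a membrane sorting protein, had 98.4 ± 1.28 CPM with ONCM and 97.6 ± 1.67 CPM with PBS, and Cnp, the cyclic nucleotide phosphodiesterase of uncompacted myelin, had 45.1 ± 1.77 CPM with ONCM and 46.2 ± 1.83 CPM with PBS (SD, n = 3 each). Gldn, the gliomedin that Schwann cells deposit at nodes of Ranvier, had a log2 fold change of -0.03 (SE 0.03), and Ncmap, a small membrane protein of myelin, had -0.10 (SE 0.05). Fa2h and Ugt8a, the enzymes that make the hydroxylated galactolipids of myelin, had 0.08 (SE 0.11) and 0.03 (SE 0.06). Mobp had -0.24 with a standard error of 0.51, so little can be said of it at this depth.

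Among the 10 Schwann lineage genes a rise was called for 1 and a fall for 3, while 6 missed the threshold, with a median log2 fold change of -0.11. Here too 40% passed, where 48.3% of all genes tested passed, 23.9% upward and 24.4% downward. S100b, the calcium-binding protein used as a standard marker of Schwann cells (chromosome 10, 76253836 to 76261319), had 570, 548 and 580 CPM in the ONCM libraries and 727, 725 and 759 CPM in the PBS libraries. The groups were well apart, and S100b fell by 0.38 on the log2 scale (SE 0.03, edgeR adjusted p = 4.13e-09). Bulk counts do not say which cells the S100b transcripts came from, so this fall cannot be assigned to Schwann cells. Scn7a, an atypical sodium channel of glia that some DRG neurons also express (chromosome 2, 66673426 to 66784910), had 331, 325 and 294 CPM with ONCM and 383, 367 and 365 CPM with PBS. All 3 ONCM libraries were below the PBS libraries, with ONCM replicate 3 the lowest, and Scn7a fell by 0.23 (SE 0.04, edgeR adjusted p = 7.90e-05). Gjc3, connexin 29 (chromosome 5, 137950992 to 137963098), had 3.998, 3.83 and 3.82 CPM with ONCM and 4.96, 6.11 and 5.76 CPM with PBS. The groups did not overlap, and Gjc3 fell by 0.53 (SE 0.10, edgeR adjusted p = 3.74e-04).

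The transcription factor and receptor genes that define the lineage did not pass. Sox10, which is required for all peripheral glia (chromosome 15, 79154913 to 79164490), had 198, 204 and 214 CPM with ONCM and 205, 197 and 199 CPM with PBS. The groups overlapped, and the log2 fold change was 0.04 (SE 0.03), against -0.03 on the log2(TPM + 1) scale. Foxd3, a neural crest transcription factor, had 20.2 ± 2.30 CPM with ONCM and 22.2 ± 0.461 CPM with PBS, with ONCM replicate 1 the lowest library. Its log2 fold change was -0.13 (SE 0.07). It was -0.04 without ONCM replicate 1, and -0.20 without ONCM replicate 3, where it passed (edgeR adjusted p = 0.0248). Erbb3, the neuregulin receptor, had 12.4 ± 1.35 CPM with ONCM and 12.3 ± 1.04 CPM with PBS (SD, n = 3 each). Dhh, the ligand by which Schwann cells organise the perineurium, and Cdh19, a cadherin of the Schwann cell lineage, had log2 fold changes of -0.09 (SE 0.04) and -0.14 (SE 0.06), both near the threshold (edgeR adjusted p = 0.0612 and 0.0519). Both passed by limma on log2(TPM + 1), at -0.14 and -0.23 (limma adjusted p = 0.0118 and 0.0192). Gpr37l1, an orphan receptor of glia, had -0.0061 (SE 0.09). Egfl8, a secreted protein with epidermal growth factor domains, rose by 0.23 (SE 0.07, edgeR adjusted p = 0.00988), and the call was lost without PBS replicate 1 (0.17, edgeR adjusted p = 0.0791). Of the exonic bases of Egfl8 47.6% are shared with other gene models, and of those of Dhh 25.2%.

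Among the 9 satellite glia genes a rise was called for 3 and a fall for 1, while 5 missed the threshold, with a median log2 fold change of 0.04. In this group 44.4% passed, where 48.3% of all genes tested passed, 23.9% upward and 24.4% downward. Glul, which encodes glutamine synthetase, the enzyme that turns glutamate into glutamine in satellite glia and in several other cell types (chromosome 1, 153899929 to 153909723), had the highest fold change of the 34. It had 409, 417 and 418 CPM in the ONCM libraries and 264, 260 and 263 CPM in the PBS libraries, with little spread within either group. The log2 fold change was 0.66 (SE 0.03, edgeR adjusted p = 5.71e-13), a level 1.58-fold that with PBS, and it ran from 0.60 to 0.67 over 13 alternative analyses. Slc1a3, the glutamate transporter that supplies this enzyme in glia, did not pass, at 7.28 ± 0.233 CPM with ONCM and 8.42 ± 1.07 CPM with PBS (SD, n = 3 each). The groups did not overlap, and the log2 fold change of Slc1a3 was -0.21 (SE 0.09, edgeR adjusted p = 0.0732).

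The remaining satellite glia genes moved little. Sparcl1, a secreted matricellular protein (chromosome 5, 104079108 to 104114088), had 403, 407 and 412 CPM with ONCM and 390, 388 and 382 CPM with PBS. The groups did not overlap, but the rise was 0.08 (SE 0.03, edgeR adjusted p = 0.0257) and passed in 6 of 13 alternative analyses. Ptprz1, a receptor phosphatase that carries chondroitin sulfate, rose by 0.16 (SE 0.05, edgeR adjusted p = 0.00694), and the call was lost by limma on log2(TPM + 1), at 0.06 (limma adjusted p = 0.426). Gja1, connexin 43, which joins satellite cells and is also made by fibroblasts, fell by 0.11 (SE 0.04, edgeR adjusted p = 0.0398), a call that held in 5 of 13 alternative analyses. Ednrb, the endothelin B receptor (chromosome 14, 103814615 to 103844508), had 153.96, 159 and 155 CPM with ONCM and 153.50, 151 and 151 CPM with PBS. The groups were just apart and Ednrb did not pass (0.04, SE 0.03). Fabp7, the brain-type fatty acid-binding protein used to mark satellite glia, had 8.96 ± 0.299 CPM with ONCM and 9.42 ± 0.453 CPM with PBS. The fibulin genes Fbln2 and Fbln5, matrix proteins that fibroblasts also make, had log2 fold changes of 0.08 (SE 0.04) and 0.02 (SE 0.05), and Fbln5 was at -0.19 on the log2(TPM + 1) scale.

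**Figure D3:**
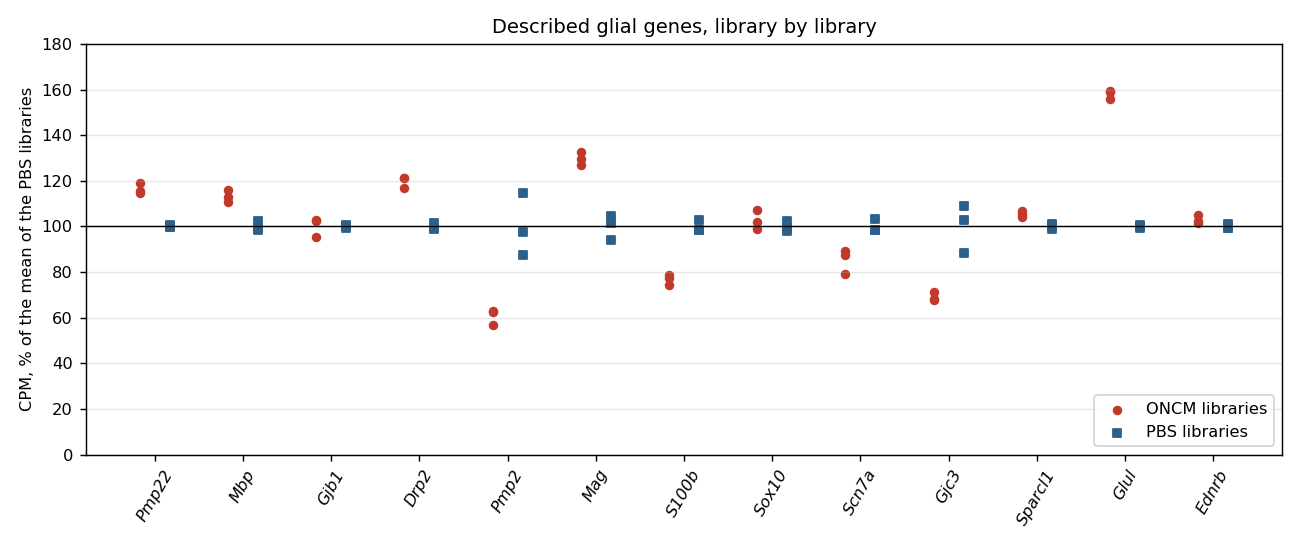
CPM of 13 glial genes in each library, as a percentage of the mean of the 3 PBS libraries, with ONCM points left and PBS points right for each gene. Glul lies highest with ONCM and Pmp2 lowest, while Gjb1 and Sox10 overlap between the groups.

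The sequences before the transcription starts of Glul, S100b, Gjc3 and Mag are shown because these genes were among the largest changes in each direction and had a RefSeq promoter window. Each is the 250 bases before the start on the gene's own strand, from RefSeq on GRCm38.p6, the assembly called mm10. Glul is at chr1:153899679-153899928 on the plus strand, S100b at chr10:76253586-76253835 on the plus strand, Gjc3 at chr5:137963099-137963348 on the minus strand, and Mag at chr7:30914923-30915172 on the minus strand. Capitals mark matches to the SOX-type letters ACAAAG or ACAATG, or to the STAT-type letters TTCNNNGAA, on either strand.
Glul: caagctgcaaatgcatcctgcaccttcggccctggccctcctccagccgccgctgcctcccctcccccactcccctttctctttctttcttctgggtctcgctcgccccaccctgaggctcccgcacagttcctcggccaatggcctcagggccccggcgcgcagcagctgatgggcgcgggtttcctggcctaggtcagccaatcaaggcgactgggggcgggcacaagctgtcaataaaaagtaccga
S100b: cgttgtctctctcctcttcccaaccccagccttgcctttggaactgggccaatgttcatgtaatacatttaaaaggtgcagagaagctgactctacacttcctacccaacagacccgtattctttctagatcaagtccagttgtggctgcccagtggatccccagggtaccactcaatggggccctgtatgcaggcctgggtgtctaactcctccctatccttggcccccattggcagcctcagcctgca
Gjc3: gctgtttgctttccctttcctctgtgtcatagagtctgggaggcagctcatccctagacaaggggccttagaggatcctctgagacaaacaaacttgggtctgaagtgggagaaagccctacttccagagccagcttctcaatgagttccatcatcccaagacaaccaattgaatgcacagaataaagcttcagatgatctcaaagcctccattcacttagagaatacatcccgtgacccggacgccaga
Mag: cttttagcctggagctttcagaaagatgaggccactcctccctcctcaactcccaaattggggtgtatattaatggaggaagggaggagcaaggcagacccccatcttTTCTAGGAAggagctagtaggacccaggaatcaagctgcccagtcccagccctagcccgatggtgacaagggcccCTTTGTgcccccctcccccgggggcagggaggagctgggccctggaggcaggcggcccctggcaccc
Mag has 3 starts in the table, and the window shown is the one farthest upstream. It held 1 match of ACAAAG, read on the opposite strand, and 1 of TTCNNNGAA, and the windows of Glul, S100b and Gjc3 held none of the 3. Windows were found for 26 of the 34 genes, 37 windows in all, since some genes have several starts. ACAAAG or ACAATG was present in 18.9% of these 37 windows and in 25.2% of all 32851 windows of the same length, and TTCNNNGAA in 8.11% and 7.02%. A match is a match of letters only, and an absent match says nothing of a factor.

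Genes of the same pathways outside the 34 were counted in the same way. Over 4 such lists 26 of 55 tested genes rose in the count test, and 17 rose by limma on either TPM scale, so the counts by direction below depend on the scale. Of all genes tested 23.9% rose in the count test and 17.8% by limma on log2(TPM + 1). Among 11 other myelin genes 8 passed, 5 upward and 3 downward, where 48.3% of all genes tested passed. Cadm4, the adhesion protein of the Schwann cell surface that meets the axon, rose by 0.14 (SE 0.04), and Gal3st1, the enzyme that makes sulfatide, fell by 0.45 (SE 0.11). Among 19 genes that control Schwann cells, 12 passed, 6 in each direction, against the same share of all genes. The inhibitors of basic helix-loop-helix factors Id4 and Id2 fell by 0.84 (SE 0.06) and 0.52 (SE 0.04). Nrg1, the neuregulin made mainly by the neurons in such cultures, stood at 118 ± 4.46 CPM with ONCM and 156 ± 1.14 CPM with PBS, and Ngfr, the neurotrophin receptor p75 shared by neurons and immature Schwann cells, at 774 ± 28.3 CPM with ONCM and 981 ± 31.8 CPM with PBS (SD, n = 3 each). Both fell (edgeR adjusted p = 1.05e-08 and 4.16e-08). Egr2, the driver of myelin genes, named after its value was seen, did not pass (-0.0078, SE 0.04).

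Of the 16 listed genes linked to repair Schwann cells 15 could be tested, and 14 passed, 12 upward and 2 downward, where 23.9% of all genes tested rose and 24.4% fell, with a median log2 fold change of 0.54. Those with the smallest p-values were Gap43, Sema4f, Lif and Ncam1, for a growth cone protein, a semaphorin, a cytokine and an adhesion molecule, which rose by 1.49, 1.39, 0.82 and 0.65 (SE 0.03 each). Neurons express Gap43, Sema4f and Ncam1 as well, and these counts do not say which cells the transcripts came from. Of 10 other satellite glia and lipid synthesis genes, 7 passed, 3 upward and 4 downward, where 48.3% of all genes tested passed. Fasn, fatty acid synthase, and Hmgcs1, an enzyme of cholesterol synthesis, rose by 0.65 and 0.39 (SE 0.03 each), while Aldoc, the glial aldolase, and Bcan, the proteoglycan brevican, fell by 0.32 (SE 0.03) and 0.44 (SE 0.05).

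Summed over all 34 genes, the glial level was 5244, 5116 and 5146 TPM in the ONCM libraries and 5171, 5089 and 5173 TPM in the PBS libraries, and the groups overlapped. On the CPM scale the same sum was 5477 ± 51.8 with ONCM and 5239 ± 36.5 with PBS (SD, n = 3 each), without overlap, so whether the groups overlapped depended on the scale. Within it the lineage sum was lower with ONCM, and the myelin and satellite glia sums were higher. Myelin genes summed to 2987 ± 71.7 TPM with ONCM and 2746 ± 26.7 TPM with PBS, and Schwann lineage genes to 1224 ± 11.2 TPM with ONCM and 1556 ± 22.3 TPM with PBS (SD, n = 3 each). Satellite glia genes summed to 946, 972 and 953 TPM with ONCM and 853, 842 and 833 TPM with PBS.

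A large part of each of these sums came from 1 or 2 abundant genes. S100b, whose cells of origin these counts do not give, made up 67.7% of the lineage sum with ONCM and 72.3% with PBS. Without S100b the lineage sum was 396 ± 4.46 TPM with ONCM and 430.4 ± 10.4 TPM with PBS (SD, n = 3 each). It was still lower with ONCM and without overlap, and in CPM it differed by -7.92%. Glul made up 37.5% of the satellite glia sum with ONCM and 28.1% with PBS, and Sparcl1 33.0% with ONCM and 37.0% with PBS. Without Glul the satellite sum was 598 ± 9.20 TPM with ONCM and 605 ± 7.82 TPM with PBS, with overlapping libraries, whereas in CPM it was 3.87% higher with ONCM. Without Mbp and Pmp22 the myelin sum was 662 ± 9.15 TPM with ONCM and 689 ± 5.48 TPM with PBS, the opposite direction to the full sum, and in CPM it was 2.68% higher with ONCM. These sums describe the libraries and were not tested.

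Markers of other cells in the cultures were summed in the same way. The counts of calls below stand beside 23.9% of all genes tested that rose and 24.4% that fell. Macrophage markers summed to between 210.2 and 220.0 TPM with ONCM and between 56.2 and 63.7 TPM with PBS, and all 9 of them rose. Fibroblast markers summed to between 437 and 445 TPM with ONCM and between 277 and 283 TPM with PBS, with 5 of 8 raised and none lowered. Dcn alone had 336 ± 1.61 TPM with ONCM and 198 ± 4.23 TPM with PBS (SD, n = 3 each), and Pdgfra, Col1a2 and Pi16 did not pass. Endothelial markers summed to between 155 and 160.0 TPM with ONCM and between 131 and 136 TPM with PBS, with 6 of 8 raised. Mural cell markers summed to between 40.8 and 42.6 TPM with ONCM and between 64.4 and 64.7 TPM with PBS, with 2 of 4 lowered, Rgs5 and Pdgfrb. Acta2 and Notch3 lay the other way without passing, at 0.29 (SE 0.13) and 0.19 (SE 0.17). Rgs5 alone had 29.0 ± 0.605 TPM with ONCM and 47.8 ± 0.299 TPM with PBS (SD, n = 3 each). The part of these cells in the changes of Glul, Gja1, Sparcl1 and the fibulin genes was not tested. Neuron markers summed to 18927 ± 501 TPM with ONCM and 18877 ± 338 TPM with PBS (SD, n = 3 each) and overlapped, with 2 of 8 raised and 5 lowered. In CPM their sum differed by -5.59%, without overlap. Tubb3 and Uchl1 rose, while Snap25, Rbfox3, Nefh, Nefl and Elavl4 fell. Tubb3 alone had 5056 ± 174 TPM with ONCM and 3026 ± 46.4 TPM with PBS (SD, n = 3 each). Markers of other cells that use myelin genes or Sox10 were low. The 6 oligodendrocyte markers summed to between 3.55 and 3.98 TPM with ONCM and between 3.57 and 3.67 TPM with PBS, and Mog, which defines these cells, had 4 counts in ONCM replicate 1 and 0 in the other 5 libraries. The 4 melanocyte markers together reached at most 0.763 TPM with ONCM and 0.466 TPM with PBS. Dividing cell markers summed to 2.46 ± 0.0837 TPM with ONCM and 2.51 ± 0.206 TPM with PBS, with overlap, and to 5.44 ± 0.386 CPM with ONCM and 6.23 ± 0.281 CPM with PBS, without overlap (SD, n = 3 each). Of these 5 markers Top2a rose by 0.78 and Mki67 fell by 0.67 on the log2 scale.

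**Figure D4:**
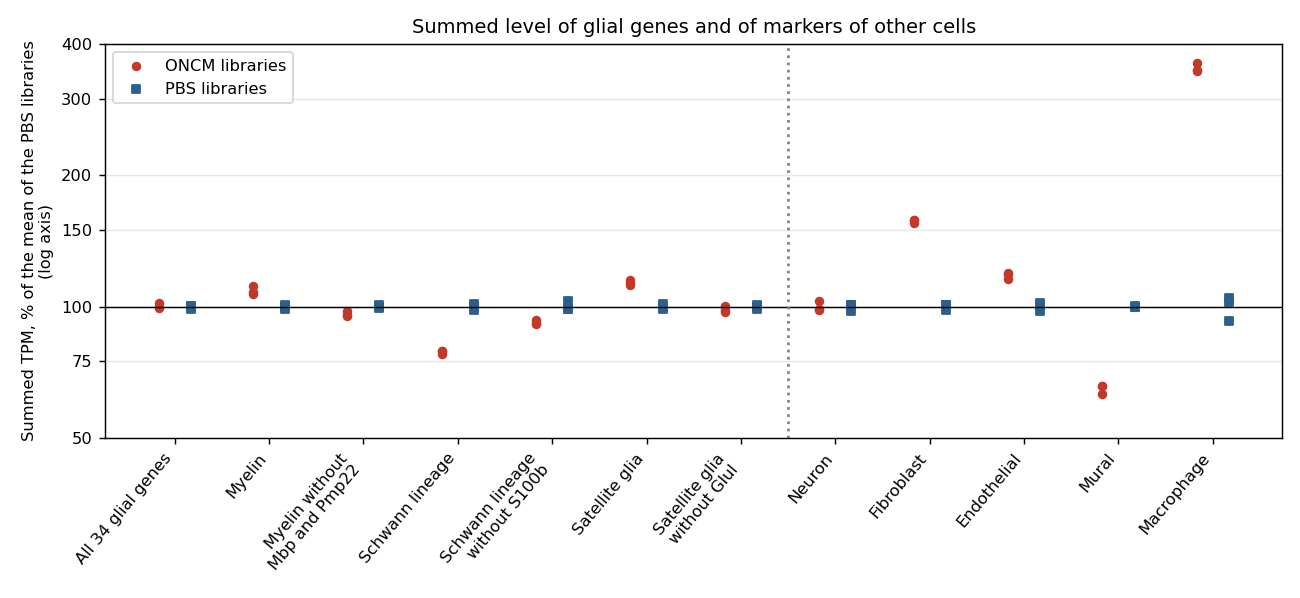
Summed TPM of glial genes (left of the dotted line) and of markers of other cells (right), per library, as a percentage of the mean of the PBS libraries on a log axis, ONCM points left and PBS points right. The sum over all 34 glial genes overlaps between the groups, the lineage sum is lower with ONCM, and the macrophage sum is the highest with ONCM.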

How the data were processed

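RNA was sequenced from 6 libraries, 3 per group. The authors deposited 1 table with raw read counts per gene and TPM values per library, and its FPKM columns were not used. The submitters' processing notes name the build mm10, while aligner, counter, annotation and strand setting remain not given in the sources used here. Counts were tested as deposited in R 4.3.3 with edgeR 4.0.16 (filterByExpr, TMM, robust quasi-likelihood F-test, no covariate), with Benjamini-Hochberg adjustment over all 20354 genes tested and a threshold of 0.05. Each standard error is the size of the log2 fold change over the root of its F statistic. CPM uses TMM-scaled library sizes and TPM is as the authors deposited it. Alternatives were DESeq2 1.42.0, RLE size factors, no filter, limma 3.58.1 on log2(TPM + 1) and log2(TPM + 0.1), no sex or mitochondrial chromosomes, each library left out, and a replicate block. Chi-square per degree of freedom between replicates was 2.76 to 7.09, so none was a duplicate. The test was checked on simulated counts, whose changes were all larger than the smallest changes called here.

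The members and gene lists were chosen with earlier results of these data known. Every member is named. Values per library are given for the 13 members that passed without overlap and with a log2 fold change of at least 0.25 in size, or were among the 3 most abundant of their role group, and up to 4 genes with the smallest p-values are named per pathway list, apart from some that are not reported here. All 34 members matched the RefSeq gene table of GRCm38.p6 by Entrez number, which gave the coordinates. Of the 34, 27 share no exonic base with another gene in GENCODE M21, and beyond Pmp2, Egfl8 and Dhh 4 share 2.11% to 5.38%. Per library, 3 counts equal 0.0465 to 0.0558 CPM, a floor for counting error only.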

Additional observations from a re-analysis of the deposited data

How the results depend on the processing

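Of the 14 glial genes that passed, 9 passed in every alternative that held them: Mbp, Pmp22, Mag, Drp2, Pmp2, S100b, Scn7a, Gjc3 and Glul. No passing gene changed sign. Prx, Ncmap, Foxd3, Dhh, Cdh19 and Slc1a3, which did not pass, passed in 1 to 6 of 13 alternatives. The number of the 34 that passed was 12 with DESeq2 and 15 on the log2(TPM + 1) scale, with 11 of the original 14 among those 15. Rises made up 49.5% of the 9829 calls over all genes by edgeR, and 39.2% of those by limma on log2(TPM + 1). Of the 55 pathway genes tested, 26 rose on counts and 17 rose on either TPM scale, and the cause was not tested. Over all genes tested 23.9% rose on counts and 17.8% on log2(TPM + 1). Without chromosomes X, Y and MT, 13 of the original 14 passed, since Drp2 was not in that fit.

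Some genes that did not pass changed sign. On log2(TPM + 1) and log2(TPM + 0.1), Mal had -0.049 and -0.050, Ugt8a -0.010 and -0.011, Gjb1 -0.060 and -0.061, Sox10 -0.026 and -0.026, Erbb3 -0.043 and -0.050, Ednrb -0.039 and -0.039, and Fbln5 -0.19 and -0.21. Gjb1 had -0.0052 with no filter and Gpr37l1 0.00040 with DESeq2. With each library left out in turn, values ran from -0.0041 to 0.022 for Mal, -0.027 to 0.066 for Ugt8a, -0.54 to 0.42 for Mobp, -0.018 to 0.035 for Gjb1, -0.075 to 0.080 for Erbb3, -0.097 to 0.068 for Gpr37l1 and -0.0071 to 0.035 for Fbln5, and the cause was not tested.

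Replicate numbers are shared by the groups, but same-numbered libraries did not deviate together (correlations -0.045, -0.012 and 0.0017). With 3 libraries per group this cannot exclude a shared animal, culture or day, and the labels state no pairing. With the replicate number as a block, 9597 genes of the whole table and 13 of the 34 passed, and no library correlated best with its own number. Depth limits Mobp, with at most 23 counts in a library.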
